A study of Mus musculus with 3 samples.

Results

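The transcripts described here encode the NF-kB subunits Nfkb1, Nfkb2, Rel and Relb, the inhibitors and modulators Nfkbia, Nfkbie, Nfkbiz, Bcl3 and Tnfaip3, and the cytokine Tnf. The 10 genes were taken by name, each with every probe set that the platform annotation pairs with that single symbol. This gave 18 probe sets of 9 genes, out of 34945 such probe sets and 18193 genes on the array, and no value of Nfkb1 is given. Intensities were measured on 3 Affymetrix GeneChip arrays, 1 per group, with RNA of Sca-1-positive bone marrow cells depleted of lineage-positive ones. The groups were C57BL/6J wild type mice and the transgenic mice Tg(Ly6a-KDM1A*v2, Line 6 and Line 3, on the same C57BL/6J strain and all 10 weeks old. The construct is named for Ly6a, the Sca-1 gene, and for KDM1A, the histone demethylase LSD1. How many mice were behind each array is not stated.

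NF-kB factors are dimers of Rel family proteins that inhibitors of the IkB group hold in the cytoplasm. Receptors for TNF, interleukin 1 and microbial products activate a kinase that marks these inhibitors for destruction, and the freed dimers enter the nucleus. Among the genes they switch on are their own inhibitors, so that the response limits itself, and Tnf, which can start it again. In myeloid cells of the bone marrow this pathway drives inflammatory cytokine and chemokine genes.

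Several of these genes are known NF-kB targets themselves, and the promoter stretches below are shown because they hold a match to the kB consensus, the DNA motif that Rel dimers bind. Promoter sequences were taken from RefSeq (GRCm38.p6), and 7 of the 10 genes were matched. In the 250 bases before each listed start site, searched on both strands, 7 of 10 promoters of these genes held a match, 3 of them alternative promoters of Nfkb2, against 7.25% of 32851 promoters of the same length. The matches belonged to Nfkb2, Rel, Nfkbia, Nfkbie and Tnfaip3, while these letters were not found in that window of Bcl3 or Tnf. Each stretch runs 5′ to 3′ on the gene's strand, and capitals mark the matches, which overlap in Nfkb2 and Rel.
Nfkb2, chr19:46304668-46304736, plus strand: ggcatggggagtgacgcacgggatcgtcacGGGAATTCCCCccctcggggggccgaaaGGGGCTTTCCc
Rel, chr11:23771021-23771091, minus strand: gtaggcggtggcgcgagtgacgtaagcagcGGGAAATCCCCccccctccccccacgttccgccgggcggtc
Nfkbia, chr12:55492648-55492706, minus strand: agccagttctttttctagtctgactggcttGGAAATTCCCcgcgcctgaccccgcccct
Nfkbie, chr17:45555564-45555633, plus strand: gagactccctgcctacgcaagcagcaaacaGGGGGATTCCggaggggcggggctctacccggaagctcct
Tnfaip3, chr10:19015411-19015565, minus strand: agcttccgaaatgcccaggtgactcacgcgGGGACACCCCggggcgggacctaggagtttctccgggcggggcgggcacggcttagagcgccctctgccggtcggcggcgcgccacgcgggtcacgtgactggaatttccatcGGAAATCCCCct
In the first of 3 listed promoters of Nfkb2 the matches began 39, 38 and 11 bases before the start site, and in Nfkbia the match began 29 bases before it. The Tnfaip3 stretch lies at the upstream of its 2 listed start sites, with matches that began 125 and 12 bases before it. These are descriptions of sequence, and binding was not measured.

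Intensities are the authors' values on a linear scale, without detection calls, and medians over all probe sets were 96.2 for wild type, 116 for Line 6 and 99.0 for Line 3. Differences are given as log2(intensity + 16), which understates those of dim genes, and a difference of 2-fold or more was counted as called. With 1 array per group there is no replicate error and no test for any difference, and the SD of Line 3 minus Line 6 was 0.38 over the 10866 genes that passed a filter, namely at or above the array median on at least 1 array. All 9 members passed it. Kdm1a, the targeted gene, read 2104 for wild type, 2575 for Line 6 and 2979 for Line 3 on its brighter probe set, and 916, 911 and 1482 on the other. Whether these probes also detect the transgene is not stated. The sex-linked transcript Xist read 2729, 6152 and 5155 in that order, and Eif2s3y read 2325, 978 and 1031. Both lay above the array median on all 3 arrays, and their balance differed between wild type and the lines. The sex make-up of the samples and the transgene therefore cannot be told apart between wild type and the lines. The comparisons of the lines with wild type share its single array.

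**Figure D1:**
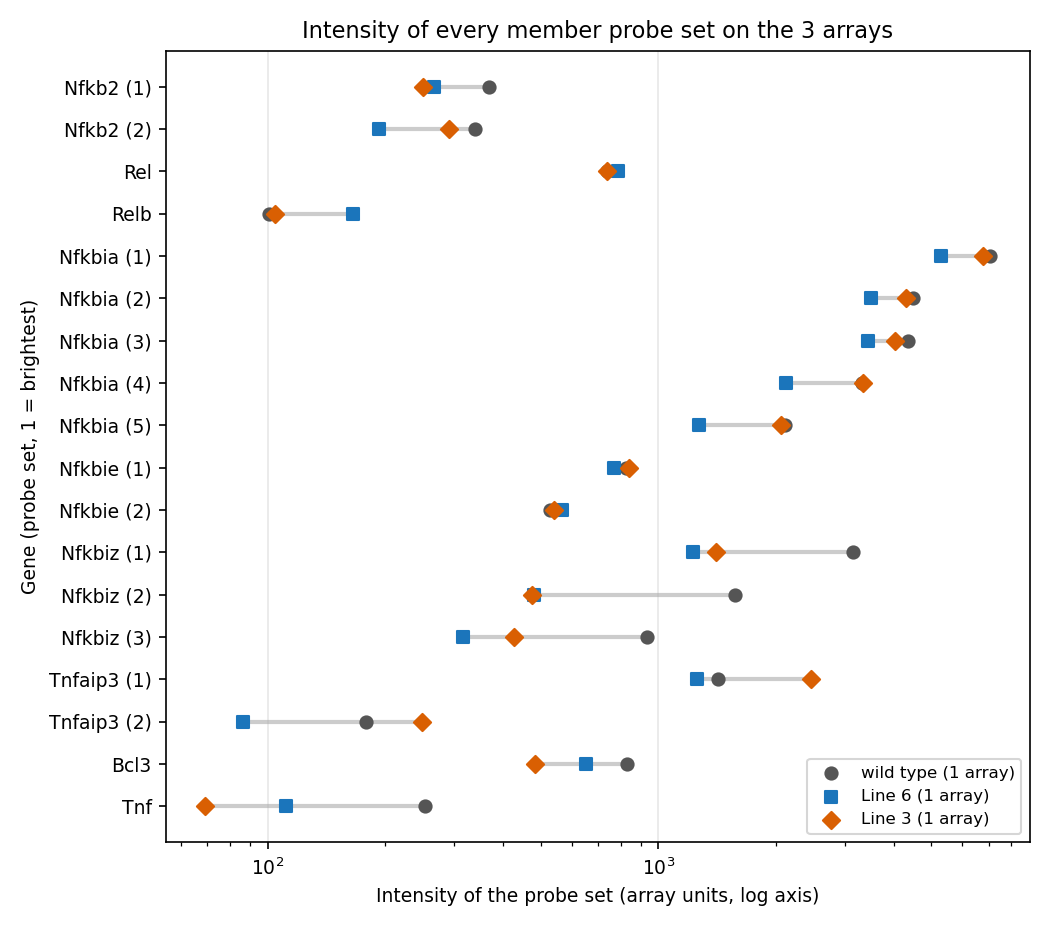
Intensity of each of the 18 probe sets (rows, ranked by brightness within a gene) on a log axis, with 1 point for each of the 3 arrays and a grey bar over their range. All 3 probe sets of Nfkbiz and the probe set of Tnf are highest in wild type, and both Tnfaip3 probe sets are highest in Line 3.

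Nfkbiz and Tnf were the members at least 2-fold lower than wild type in both lines, and no member was 2-fold higher in either. Thus 2 of 9 members were called lower in Line 6 and 0 higher, where 2.43% of all genes were lower and 2.6% higher. In Line 3 the same 2 of 9 were called lower and 0 higher, against 4.47% and 3.6% of all genes. In both lines at once, 2.08% of all genes were called lower and 1.35% higher. The genes were listed with results of these arrays known, so these counts describe them and support nothing further. The members' median lay at -0.34 for Line 6 and at -0.06 for Line 3, against 0.06 and 0.12 over all genes. Of the 9, 5 lay below wild type in both lines, 2 lay above it in both and 2 went opposite ways, against 30.6%, 48.9% and 20.6% of all genes. This split moved with the scaling: 5 members lay below wild type in Line 3 as deposited, 7 after quantile normalization or centring and 8 after cyclic loess.

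**Figure D2:**
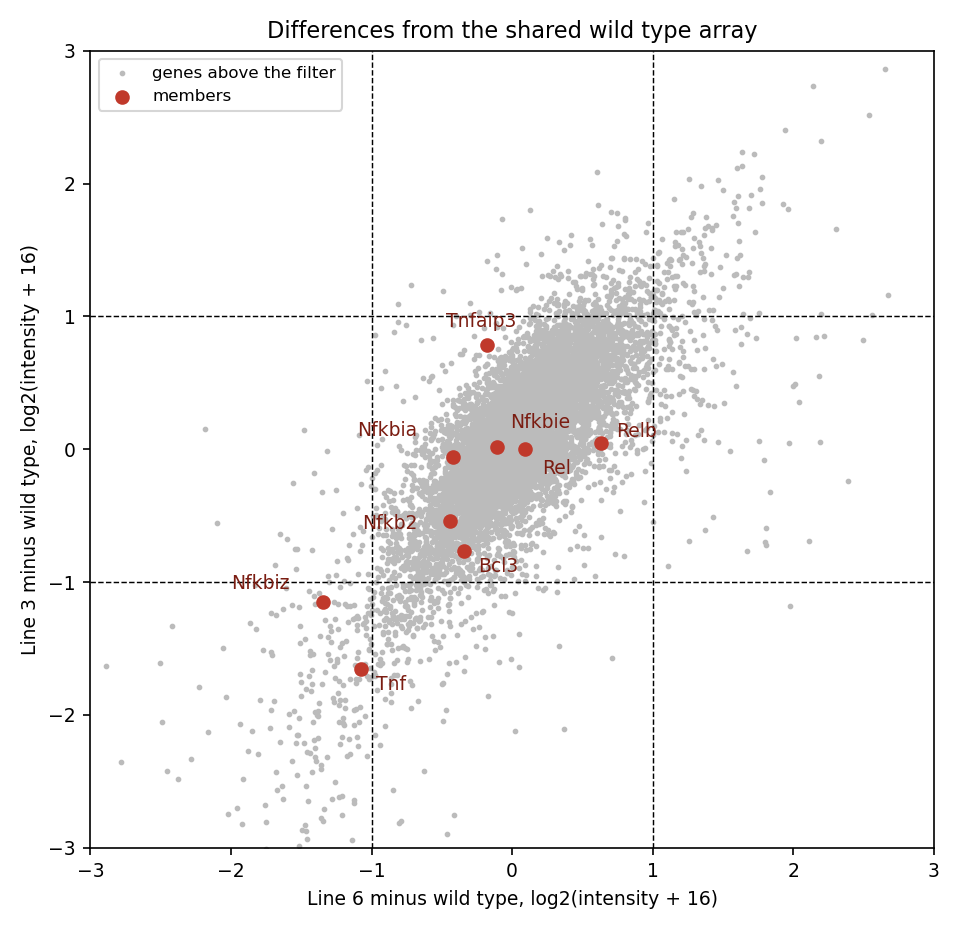
Difference from wild type in Line 6 (x axis) and Line 3 (y axis) on the log2(intensity + 16) scale, for genes above the filter (grey) and the 9 members (red, each at its brightest probe set), with dashed lines at 2-fold. Nfkbiz and Tnf lie in the lower left square, Tnfaip3 lies at -0.18 and 0.78 inside the 2-fold lines, and 27 genes fall outside the axes. The axes share the wild type array.

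Among the subunits, Nfkb2, Rel and Relb stayed within 2-fold of wild type in both lines. Nfkb2, the precursor of p52 and the product of the non-canonical branch, read 369 for wild type, 267 for Line 6 and 249 for Line 3 on its brighter probe set. Its other probe set, of the _x_at kind that may also match other transcripts, read 340, 193 and 291. Both probe sets were highest in wild type, but they ordered the lines differently. The differences were -0.44 in Line 6 and -0.54 in Line 3 on the brighter probe set, and -0.77 and -0.21 on the other.

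Rel, the c-Rel subunit of lymphoid and myeloid cells, read 740 for wild type, 790 for Line 6 and 741 for Line 3. Its differences of 0.09 and 0.00 were small, and that of Line 6 was -0.14 after centring each array on its median. Relb, the partner of p52, read 101 for wild type, 165 for Line 6 and 104 for Line 3. The Line 6 array alone stood higher, by 0.64 on the log2 scale and by 0.40 after centring, and Relb lay near the array median on all 3 arrays. B cell markers stood higher on the Line 6 array as well. Of 12 such markers, 9 were called higher for Line 6 and 2 for Line 3, against 2.6% and 3.6% of all genes, and the 2 were 0 under each of the 3 other scalings. Their medians were 1.78 for Line 6 and 0.19 for Line 3, and their summed intensity was 3922 for wild type, 12309 for Line 6 and 4616 for Line 3. Their part in the Relb value was not tested. In RNA from many cells, fewer cells of a type and less RNA per cell cannot be told apart.

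The remaining subunit with a probe set, Rela, which encodes the transactivating p65 protein and is no member of the set, read 1006 for wild type, 864 for Line 6 and 958 for Line 3. Its differences of -0.22 and -0.07 were small beside those of Nfkbiz.

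The classical cytoplasmic inhibitors Nfkbia and Nfkbie were not called in either line. Nfkbia encodes IkB alpha, the inhibitor that is destroyed and made again within a response. Its brightest probe set read 7079 for wild type, 5288 for Line 6 and 6790 for Line 3, differences of -0.42 and -0.06. On all 5 Nfkbia probe sets Line 6 was the lowest array, with differences from wild type of -0.72 to -0.34. In Line 3 they lay between -0.11 and 0.02. The lowest Line 6 values came from the dimmest probe set, which read 2109, 1274 and 2065.

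Nfkbie, which encodes the related inhibitor IkB epsilon, read 829 for wild type, 769 for Line 6 and 839.96 for Line 3 on its brighter probe set, and 528, 566 and 542 on the other. The 3 arrays were close on both, with differences between -0.11 and 0.10. Nfkbib, encoding IkB beta and outside the set, was named after its values were seen and read 669 for wild type, 659.5 for Line 6 and 620.3 for Line 3.

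Other IkB proteins are nuclear and act on chromatin as cofactors of NF-kB instead of holding it in the cytoplasm. As deposited, Nfkbiz was the one among them past 2-fold, with Nfkbid close to the limit. Nfkbiz encodes IkB zeta, which secondary response genes such as those of interleukin 6 and lipocalin 2 need for their induction. Its brightest probe set read 3139.9 for wild type, 1226 for Line 6 and 1407 for Line 3. The second read 1568, 481 and 476, and the third read 936, 316 and 427. On each of the 3 probe sets the wild type array stood above both lines, which lay near each other. The log2 differences were -1.35, -1.67 and -1.52 in Line 6 and -1.15, -1.69 and -1.11 in Line 3, or 2.54-fold and 2.22-fold lower on the brightest probe set. Of 2548 genes with at least 3 probe sets above the filter, 10 (0.392%) were 2-fold lower in both lines on every such probe set, and Nfkbiz was among them.

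Bcl3, which encodes a nuclear IkB protein that works with p50 and p52 homodimers, read 832 for wild type, 652 for Line 6 and 484 for Line 3. Both lines lay below wild type, by -0.34 and -0.76, inside the 2-fold limit. Nfkbid, which encodes the nuclear inhibitor IkB NS and is outside the set, read 886, 483 and 449, differences of -0.85 and -0.96. As deposited it was not called in either line, but it came close to the limit. It lay lowest of the 4 listed subunits and inhibitors outside the members. Of these, 1 was called lower in Line 6 after centring, and 1 in Line 3 after cyclic loess. The shares of all genes called there in either direction were 5.68% and 7.62%. In Line 6, Bcl3 at -0.34 lay no lower than Nfkbia at -0.42, so the nuclear and cytoplasmic inhibitors did not separate there.

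Tnfaip3 showed the largest difference between the lines among the 9 members. It encodes A20, a ubiquitin-editing enzyme that ends signalling from the TNF receptor. The brighter probe set read 1419 for wild type, 1254 for Line 6 and 2452 for Line 3. The dimmer read 179, 86.5 and 249. On both probe sets Line 3 was highest and Line 6 lowest. Differences from wild type were -0.18 and -0.93 in Line 6 and 0.78 and 0.44 in Line 3. Line 3 minus Line 6 was 0.96 on the brighter probe set and 1.37 on the dimmer. On the dimmer, the Line 6 value lay below the array median, so the sizes of its Line 6 differences are uncertain. At their brightest probe sets, 0 of 9 members were called between the lines, where 2.31% of all genes were, and Tnfaip3 passed 2-fold there, at 1.16, after centring on array medians.

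Tnf, the cytokine that both activates NF-kB and is induced by it, read 252 for wild type, 111 for Line 6 and 69.3 for Line 3 on its single probe set. Wild type stood highest, with differences of -1.07 for Line 6 and -1.65 for Line 3. Tnf passed the filter through wild type alone, since both line values lay below their array medians. There a low intensity cannot be told from background, so the sizes of these differences and the order of the lines are uncertain. The Line 6 difference was -0.85 with a pseudocount of 64, inside the limit.

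The 3 genes whose pair of differences lay nearest to that of Tnf, by Euclidean distance over the 2 differences from the 3 arrays, were Plau, Tmcc1 and Mfsd6, at 0.035 to 0.052. The Line 6 difference of Tnf itself ran from -1.31 to -0.85 over the settings, a wider span than these distances, so nothing is read from which genes were nearest.

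The other genes of the pathway were taken from lists by role. Of 8 genes that process Tnf mRNA and protein, none was called in either line, with medians of 0.08 and 0.02. As 5.02% of all genes were called in Line 6 and 8.07% in Line 3, 0 of 8 is not far from those shares. Zfp36, which encodes tristetraprolin and marks Tnf mRNA for decay, read 11556 for wild type, 7772 for Line 6 and 9261 for Line 3. Rhbdf2, which encodes iRhom2, the carrier of the enzyme that releases TNF, read 1188, 876 and 692. Both were highest in wild type.

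Of 10 ligands of TNF and interleukin 1 type, 7 passed the filter. Il1b, the interleukin 1 beta gene, and Tnfsf13b, which encodes the B cell survival factor BAFF, were called lower in both lines. The shares of all genes called lower and higher in both lines were 2.08% and 1.35%. Tnfsf13b read 723 for wild type, 263 for Line 6 and 132 for Line 3. Tnfsf11, the RANK ligand gene, was called higher in both, at 45.8 for wild type, 110 for Line 6 and 146 for Line 3. It lay below the array median in wild type and in Line 6, and passed the filter through Line 3 alone. Its call in Line 6 ended under each of the 3 other scalings. Lta, the neighbour and relative of Tnf, named after its values were seen, stayed below the filter.

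Of 14 receptors above the filter, 3 were called lower in both lines, 0 were called higher in either line, and 11 lay below wild type in both. Among all genes, 2.08% were called lower in both lines and 30.6% lay below wild type in both. The 3 called as deposited sense bacterial products. Il1rap, of the interleukin 1 receptor and named after its values were seen, lay at -1.20 in Line 6 and -0.99 in Line 3. It thus missed the limit in Line 3 alone. Under each of the 3 other scalings, 4 receptors were called lower in both lines, against 2.34% to 2.99% of all genes. Tlr2 read 850.2 for wild type, 345 for Line 6 and 341 for Line 3. Its partner Tlr6 read 377, 104 and 151. Cd14, the lipopolysaccharide co-receptor, read 436, 63.7 and 132. On the Line 6 array Tlr6 and Cd14 lay below the array median, so the sizes of their differences there are uncertain. The medians of the receptor list were -0.63 in Line 6 and -0.73 in Line 3. Tnfrsf1a, the main receptor for TNF, was named after its values were seen and read 3267, 1832 and 1952, differences of -0.83 and -0.74.

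Kinases and adaptors stayed near wild type, with medians of -0.06 and 0.00 over 23 of 30 listed genes. There was 1 call, lower in Line 3, where 4.47% of all genes were called lower, so it is near the overall share. Tirap, an adaptor of Toll-like receptors, was called lower in Line 3, with 725 for wild type, 452 for Line 6 and 286 for Line 3. Myd88, the adaptor it recruits, read 1183, 735 and 629. None of the 14 feedback regulators was called in either line, and their medians were -0.14 and -0.02. With 5.02% of all genes called in Line 6 and 8.07% in Line 3, 0 of 14 is not far from the overall shares. N4bp1, a restraint on NF-kB signalling, had the largest mean difference (-0.89 and -0.85). Zc3h12a, the gene of the RNase regnase-1, which cleaves inflammatory mRNAs, followed at -0.76 in both lines.

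**Figure D3:**
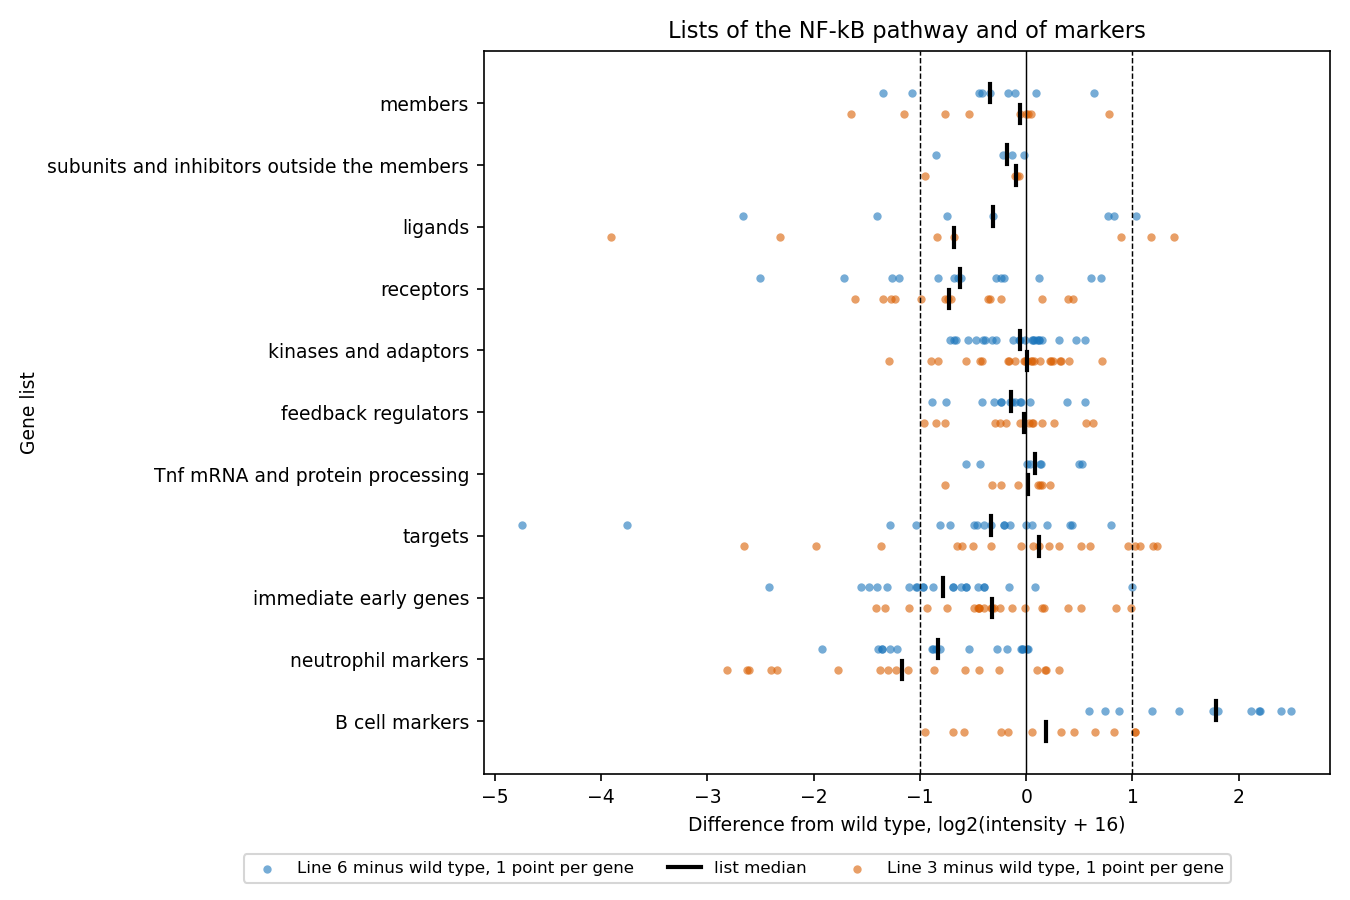
Difference from wild type on the log2(intensity + 16) scale for each gene above the filter, in lists of the NF-kB pathway and of markers, with Line 6 in blue, Line 3 in orange, black bars at list medians and dashed lines at 2-fold. Most receptors (11 of 14) and neutrophil markers (14 of 18) lie left of 0 in both lines, target genes reach to both sides, and B cell markers lie to the right in Line 6.

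NF-kB target genes went both ways. Of 19 above the filter, 3 were called lower in both lines and none higher in both. These were the chemokine gene Cxcl2, the prostaglandin synthase gene Ptgs2 and the monocyte chemokine gene Ccl2. Ccl2 read 153 for wild type, 53.4 for Line 6 and 49.5 for Line 3. It passed the filter through wild type alone, as both line values lay below their array medians. Cxcl2 (115.6) and Ptgs2 (43.1) also lay below the median in Line 6. The sizes of these differences are therefore uncertain. In Line 6, Ier3 was also called lower, and in Line 3, Ccl4, Il6, Vcam1 and Csf1 were called higher, all named after their values were seen. Among all genes 2.08% were called lower in both lines, 2.43% lower in Line 6 and 3.6% higher in Line 3. After centring or cyclic loess, 3 targets were called higher in Line 3, and 2 with a pseudocount of 64.

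Set against Line 6, Line 3 showed higher values at 7 of the 19 targets, past 2-fold, and lower values at none, where 0.727% of all genes were called higher and 1.58% lower. The 7 were Cxcl2, Ptgs2, Il6, Ccl3, Ccl4, Ier3 and Csf1, named after their values were seen. On the Line 6 array Cxcl2, Ptgs2 and Il6 lay below the array median, so the sizes of their differences are uncertain. Ccl3, a macrophage inflammatory chemokine, read 4638 for wild type, 2635 for Line 6 and 9008 for Line 3, and Ier3, an early response gene, read 2268, 1098 and 3242. In both of these, as in Tnfaip3, Line 3 was highest and Line 6 lowest. In Cxcl2 and Ptgs2, by contrast, wild type was highest, with Line 3 between it and Line 6. Nfkbiz (0.20) and Tnf (-0.58) were not among the genes past 2-fold between the lines. The count of 7 was the same under each of the 3 other scalings.

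Markers of other cells and of acute stimulation also differed between the arrays. Neutrophil markers lay below wild type in both lines at 14 of 18 genes, with 6 called lower in both and 10 after centring, against 30.6% and 2.08% of all genes as deposited. The exceptions were the primary granule genes Elane, Mpo, Prtn3 and Ctsg, which stayed near wild type, between -0.05 and 0.31. The list's medians were -0.83 in Line 6 and -1.17 in Line 3. The summed intensity of the list was 219049 for wild type, 158985 for Line 6 and 138290 for Line 3. None was near 0: the neutrophil gene S100a8 read 25535, 22487 and 18745 in a fraction labelled as lacking lineage markers. Monocyte and macrophage markers went both ways. In both lines, 7 of 19 were called higher and 3 lower, against 1.35% and 2.08% of all genes. Of the 7, Cd5l and Ms4a7 passed the filter through the lines alone, and of the 3, Vcan passed it through wild type alone. The list's summed intensity ran from 38581 to 43512. The part of these cells in the Nfkbiz and Tnf values was not tested. Mast cell and basophil markers stood higher on the Line 3 array, as Tnfaip3 did. Of 6, 5 were called higher for Line 3 and 0 for Line 6, against 3.6% and 2.6% of all genes. The other, Hdc, lay below wild type, at -0.75 in Line 6 and -0.51 in Line 3. Gata2, among the 5, is also in the list of stem and progenitor markers. The list's medians were 0.28 for Line 6 and 1.36 for Line 3, and its summed intensity was 14932 for wild type, 15024 for Line 6 and 26269 for Line 3. The part of these markers in the Tnfaip3 value was not tested.

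Immediate early genes, which cells switch on within minutes of a stimulus or of handling, were lower at 16 of 22 in both lines, with 8 called lower in Line 6 and 3 in Line 3. Among all genes, 30.6% lay below wild type in both lines, 2.43% were called lower in Line 6 and 4.47% in Line 3. The list's medians were -0.78 and -0.33, and their summed intensity was 79610 for wild type, 50620 for Line 6 and 71328 for Line 3. Line 3 stood above Line 6 past 2-fold at 5 of the 22 and below it at none, against 0.727% and 1.58% of all genes. Ier3 was among the 5 and is also in the target list. Fos, a subunit of AP-1, read 7981 for wild type, 3915 for Line 6 and 7276 for Line 3, the order also seen at Nfkbia. The part of this in the Nfkbia and Tnfaip3 values was not tested. Stem and progenitor markers lay above wild type in both lines at 9 of 9 genes above the filter, against 48.9% of all genes. Of these, 3 were called higher in Line 6 and 6 in Line 3, against 2.6% and 3.6% of all genes. The medians were 0.70 and 1.11, and the 3 were 2 under each of the 3 other scalings. Procr and Mecom, called in both lines, lay below the array median in wild type and passed the filter through the lines alone. The list's summed intensity was 7611 for wild type, 11281 for Line 6 and 14167 for Line 3. The part of these markers in the members' values was not tested. Examples are Kit at 603 for wild type, 899 for Line 6 and 923 for Line 3 and Cd34 at 971, 1838 and 2315, and Ly6a is not analysed here.

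**Figure D4:**
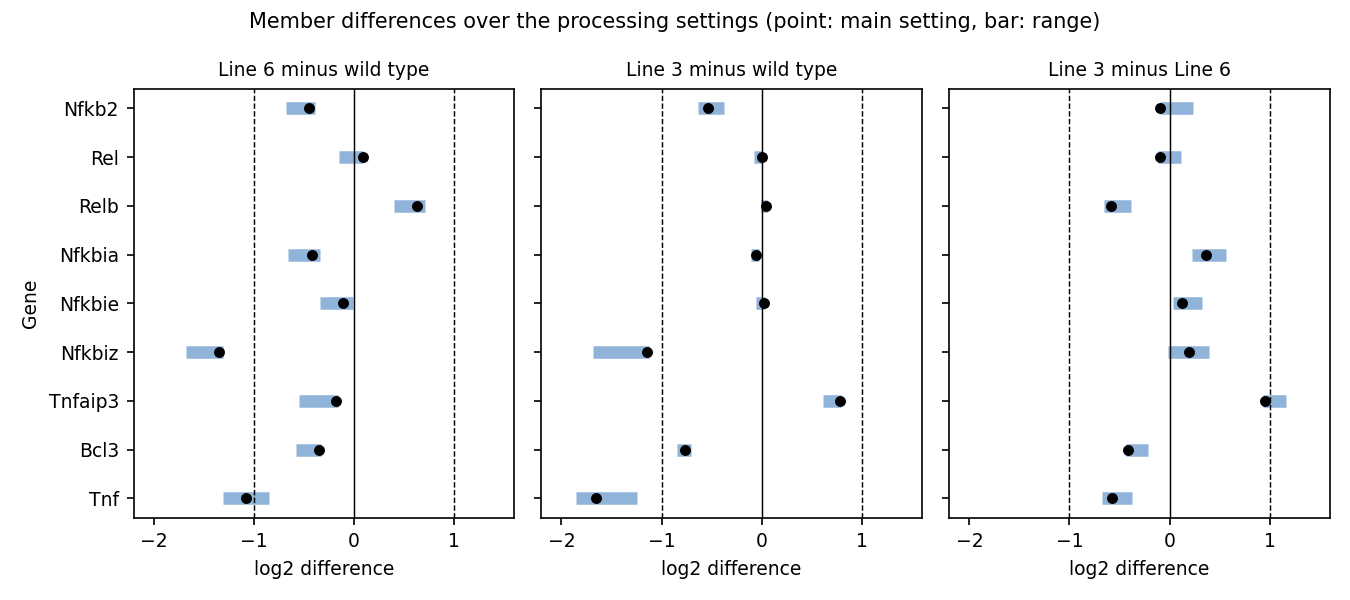
Difference of each member in each of the 3 comparisons on the log2 scale, with a point for the main setting, a bar over the range of the alternatives run and dashed lines at 2-fold. The Nfkbiz bars stay beyond 2-fold in both lines, the Tnf bar crosses the limit in Line 6, and the bars of Rel and Nfkbie span 0 or end near it.

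Over the alternatives for scaling, pseudocount, probe set choice and filter, Nfkbiz ran from -1.67 to -1.31 in Line 6 and from -1.69 to -1.12 in Line 3. Tnf ran from -1.31 to -0.85 in Line 6 and from -1.85 to -1.25 in Line 3. Tnfaip3 ran from 0.61 to 0.80 in Line 3 and stayed below wild type in Line 6, from -0.55 to -0.16. Bcl3 stayed between -0.58 and -0.32 in Line 6 and between -0.84 and -0.71 in Line 3.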

How the data were processed

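The authors deposited intensities on a linear scale, 1 per probe set and array. RNA was amplified with the Ovation Pico WTA System and labelled with biotin from 3 ug, per the labels' protocols. Neither labels nor file name the summary method, the scaling or a genome build. From the values, the arrays had been scaled, because the mean intensity after trimming 2% at each end was 497 on each. No interval can be given, and the number of arrays limits the precision.

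Probe sets were paired with genes through the platform annotation, and symbols of 34741 of 34945 single-symbol probe sets were updated through Entrez identifiers. A gene took its probe set with the highest mean, and counts cover genes at or above the array median on at least 1 array (10866 of 18193). The members and lists were chosen with earlier results of these data known. The named genes are all members, Kdm1a, per pathway list up to 4 genes called in both lines or otherwise the 2 with the largest mean difference, and the 3 nearest to Tnf. Exceptions are marked or are markers named with their list. The counting was tested on simulated data. Quantile normalization and cyclic loess used limma 3.58.1 in R 4.3.3, and the rest used Python 3.11.15 with pandas 2.3.3.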

Additional observations from a re-analysis of the deposited data

Results flagged for a closer look

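Tnfaip3 was flagged for the difference between its 2 line values. These lay on opposite sides of wild type, as they did at 20.6% of all genes. On its dimmer probe set, Line 3 minus Line 6 was 1.37 on the log2 scale, with Line 6 at -0.93 and Line 3 at 0.44 from wild type. The Line 6 value of that probe set lay below the array median, so the size of 1.37 is uncertain. The brighter probe set showed the same order, with a difference of 0.96. With 1 array for each line, no test of this was possible and it was not tested.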

How the results depend on the processing

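With 1 array per group, leaving an array out ends a comparison. No paired analysis was possible because each group had 1 sample. The counts of called members changed with the limit, the filter, the pseudocount, centring and the choice of probe set. At 1.5-fold, 4 members were called in Line 3 and 2 between the lines, against 25.5% and 9.68% of all genes. At 3-fold, 0 were called in Line 6, 1 in Line 3 and 0 lower in both lines. The shares of all genes there were 1.23%, 2.34% and 0.497%. With a pseudocount of 64, 1 was called in Line 6 and 1 lower in both, against 2.94% and 1.52%. Under the filter at percentile 75, which 6 members passed, 1 was called in Line 6, in Line 3 and lower in both. Of all genes, 3.17%, 6.04% and 2.14% were. Between the lines, 1 was called after centring and with the median of all probe sets, against 2.43% and 2.04%. The other 50 values of counts and medians stayed within 1.5 times, or within 0.38 for medians. Single members' differences stayed within 0.38 of the main setting in 226 of 228 cases, and no called one changed sign. The exceptions were Tnf in Line 3 with a pseudocount of 64 (-1.25) and Nfkbiz in Line 3 when probe sets were summarised by their median (-1.69). Many of the 228 cases could not move, so the 226 overstates stability. Changing the filter, or keeping only probe sets with the plain _at ending, left the chosen probe set of each remaining member unchanged. A median of all probe sets cannot move a gene with 1 probe set. With no filter, the members' counts and medians could not move either. Centring moved the median of all genes in Line 6 from 0.06 to -0.17. Of genes called in both lines, 147 were higher and 226 lower as deposited, 77 and 325 after centring, 90 and 254 after quantile normalization, and 85 and 274 after cyclic loess.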
